A study of Mus musculus with 20 samples.

Results

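The 10 genes described here encode secreted glycoproteins of the extracellular matrix: fibronectin (Fn1), tenascin C (Tnc), periostin (Postn), osteonectin (Sparc), thrombospondins 1 and 2 (Thbs1, Thbs2), osteopontin (Spp1), versican (Vcan), transforming growth factor beta induced (Tgfbi) and fibulin 1 (Fbln1). They were taken by gene symbol from the table of RNA levels, and are 10 of its 54986 genes. Each gene matched 1 row. They were chosen by their RNA levels in these same libraries, with earlier results of the data known: Fn1 and Tnc already stood among the leading genes, and which values led to each of the others is not recorded. Their values are therefore given as a description, without a test. Levels are in CPM, read counts scaled to the size of a library, and the test across the genome took the 17106 genes that reached 1 CPM or more in 2 or more of the 20 libraries. Of the 10 genes, 6 passed (Fn1, Tnc, Sparc, Thbs1, Spp1 and Vcan), and Tnc passed only through the libraries of TGFβ-treated cells. The other 4 (Postn, Thbs2, Tgfbi and Fbln1) did not.

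All libraries were made from NMuMG, an epithelial cell line of the normal mouse mammary gland, or from lines derived from it, in 10 conditions with 2 libraries each. A first set of 5 conditions held untreated NMuMG cells, NMuMG cells given TGFβ for 4 d, NMuMG cells carrying an shRNA against hnRNP E1 (gene Pcbp1; E1KD), and the lines M1P and L1P. E1KD cells had been injected into the mammary fat pad of NOD/SCID mice, which lack B and T lymphocytes, and M1P and L1P were recovered from the primary tumor and from lung metastases and grown in culture under puromycin, so both descend from cells with the hnRNP E1 shRNA. A second set held NMuMG cells with an empty vector, clone 12 and clone 16 of NMuMG overexpressing the long noncoding RNA Platr18 (each 1 clone), and E1KD cells given either a scrambled control shRNA (E1KD SCR) or one that targets Platr18 (Platr18 KD). The libraries of the 2 sets were of different kinds, and levels were compared within a set only. Nothing in the labels says whether the 2 libraries of a condition came from separate cultures, so the spread between them may be technical.

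The libraries were scaled to 50.8 M to 60.03 M reads (M, 1e6) in the first set and 62.96 M to 147.3 M in the second, at which 3 reads on a gene are worth 0.0204 to 0.0591 CPM. Numbers of reads given below are approximate, being CPM divided by the value of 1 read in that library. The target of the silencing, Pcbp1, stood at 287 and 312 CPM in NMuMG against 16.6 and 14.2 CPM once silenced (E1KD), and at 32.3 and 32.3 CPM with the empty vector against 3.28 and 3.46 CPM in E1KD SCR. Platr18, listed as Lncenc1, stood at 813 to 3096 CPM in the clones and 3.68 and 3.06 CPM with the empty vector, which E1KD SCR overlapped at 2.92 and 3.10 CPM, while Platr18 KD had 0.136 and 0.170 CPM. In the first set it was at 1.24 and 1.45 CPM in NMuMG and 17.9 and 14.6 CPM in E1KD. The E1KD libraries stood apart from each other: replicate 1 exceeded replicate 2 by a median log2 ratio of 0.29 over all tested genes, and no other pair differed by more than 0.07. Among 6 epithelial markers, Epcam and Cldn7 were at or near 0 in every library, Krt8 and Krt18 were at 546 to 2385 CPM, and Cdh1 and Ocln, at 70.15 to 236.9 and 3.36 to 32.6 CPM, were called lower in M1P than in E1KD (log2 fold change -1.29 and -1.06). Of 5 mesenchymal markers, Vim, Cdh2 and Snai2 were called higher in E1KD than in NMuMG (1.40, 1.73 and 1.03) and Cdh2 and Zeb1 after TGFβ (2.29 and 1.12), none was called in the other 5 comparisons, and Twist1 was too low to be tested. The part of these markers in the results was not tested. The 6 fibroblast markers summed to at most 1.68 CPM outside the TGFβ libraries and to 31.3 and 39.3 CPM in them, nearly all of it Col1a1, with Thy1 and Lum at 0. The 5 leukocyte markers summed to 5.57 to 6.85 CPM in M1P and L1P and to 1.45 to 4.19 CPM elsewhere, and the endothelial, erythroid and alveolar lists stayed under 1 CPM in every library. In bulk RNA, fewer cells with a transcript and less of it in each cell cannot be told apart.

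Fibronectin is laid down as fibrils that cells grip through integrins, above all the receptor of Itga5 and Itgb1. Matricellular proteins such as the thrombospondins, tenascins, osteopontin and osteonectin add little to the strength of the matrix and instead tune adhesion, growth factors and matrix assembly. Fibronectin and tenascin C are textbook products of cells in epithelial-mesenchymal transition (EMT), of which TGFβ is a classical inducer.

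Promoter sequences from RefSeq (GRCm38.p6) were found for 8 of the 10 genes, all but Fn1 and Thbs1. The 250 bases before the start of transcription are shown for Tnc, Postn and Spp1. Tnc (chr4:64047016-64047265, minus strand) had no read in NMuMG and 2008 and 2200 after TGFβ. Postn (chr3:54360857-54361106, plus strand) was too low to be tested, with 0.200 and 0.300 CPM after TGFβ and 2 reads at most elsewhere. Spp1 (chr5:104434861-104435110, plus strand) was abundant in every library. Capitals mark matches on either strand to 4 short motifs: the SMAD box was searched as CAGAC, the AP-1 site as TGANTCA, the TEAD site as GGAATG and the core promoter box bound by TBP as TATAAA.
Tnc: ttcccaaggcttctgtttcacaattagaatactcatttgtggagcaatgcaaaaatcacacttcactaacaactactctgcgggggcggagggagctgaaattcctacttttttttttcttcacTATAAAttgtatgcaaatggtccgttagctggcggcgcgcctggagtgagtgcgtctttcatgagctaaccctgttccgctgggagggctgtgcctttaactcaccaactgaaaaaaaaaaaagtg
Postn: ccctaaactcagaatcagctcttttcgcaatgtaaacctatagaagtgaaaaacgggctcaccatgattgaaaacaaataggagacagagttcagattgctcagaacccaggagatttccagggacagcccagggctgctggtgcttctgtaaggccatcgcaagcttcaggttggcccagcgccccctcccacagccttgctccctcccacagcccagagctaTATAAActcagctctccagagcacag
Spp1: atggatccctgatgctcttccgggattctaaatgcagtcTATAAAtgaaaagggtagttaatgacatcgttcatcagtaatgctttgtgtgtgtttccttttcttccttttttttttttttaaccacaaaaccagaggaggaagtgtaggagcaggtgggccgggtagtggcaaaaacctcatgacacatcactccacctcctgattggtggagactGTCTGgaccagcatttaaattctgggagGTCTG
Over the same 250 bases of all 32851 promoters in the table, CAGAC was present in 42.2%, the AP-1 letters in 6.7%, GGAATG in 12.6% and TATAAA in 12.4%. The Tnc window held TATAAA alone, starting 126 bases before the start site. Postn also held TATAAA alone, 26 bases before the start. Spp1 held TATAAA 211 bases before it and CAGAC on the opposite strand at 33 and 5 bases. None of the 8 windows held the AP-1 or TEAD letters. The Sparc window, not shown, lies before a start site 3104 bases from the annotated start of the gene.

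**Figure D1:**
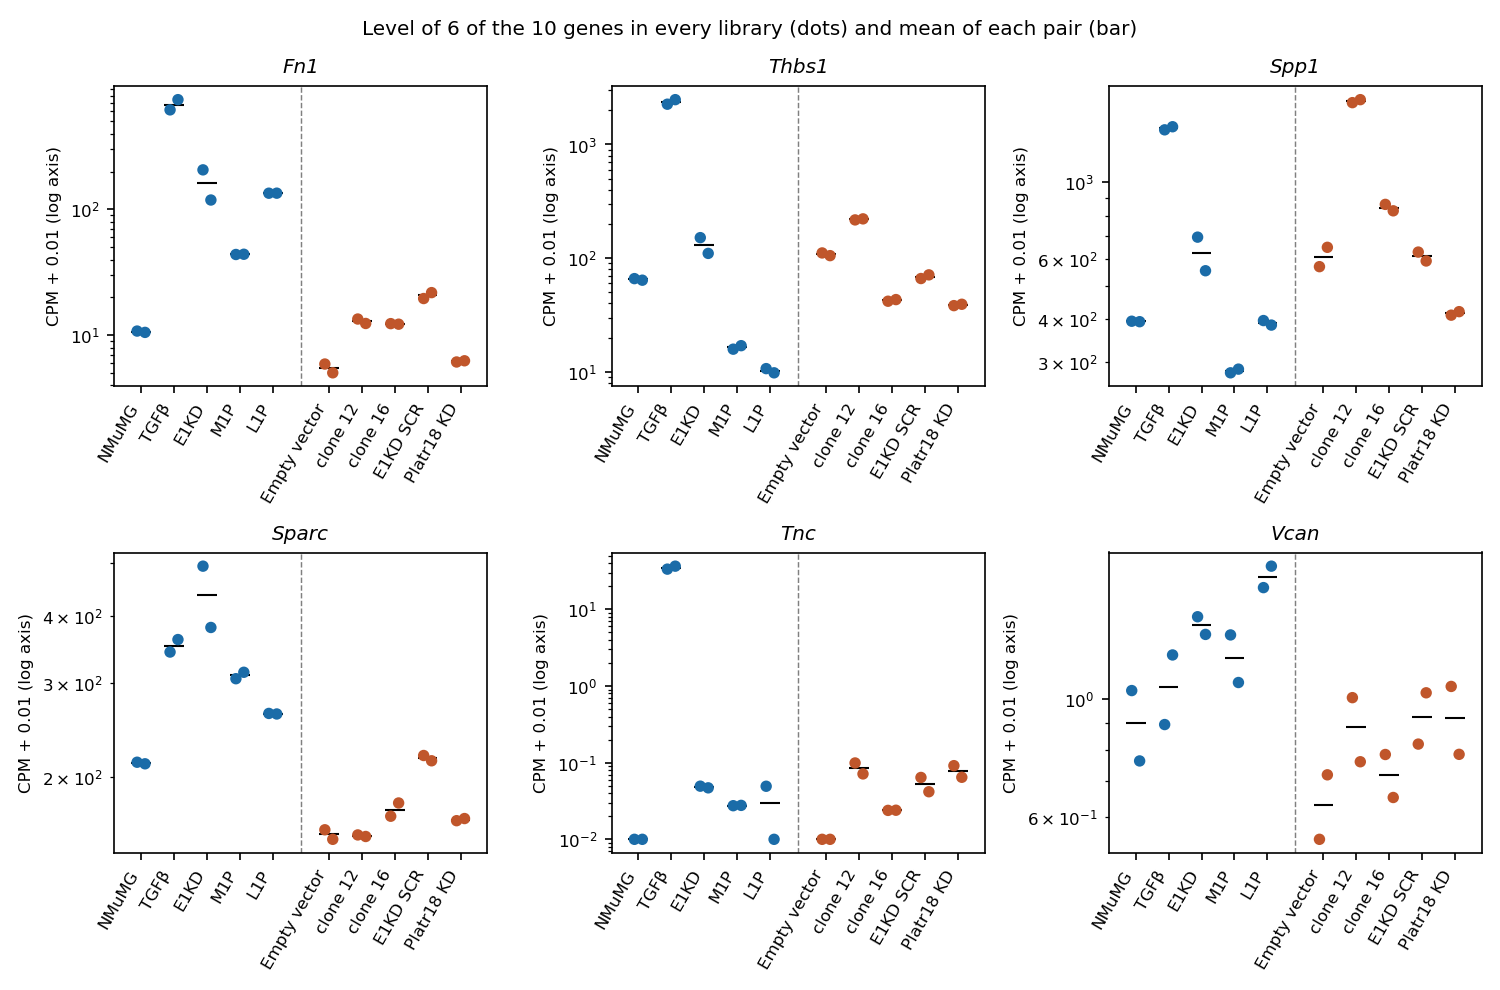
CPM of 6 of the 10 genes in every library, with 0.01 added and a log axis of its own in each panel; dots are libraries, bars the mean of a pair, blue the first set and orange the second. In the first set Fn1, Thbs1, Spp1 and Tnc are highest after TGFβ (Tnc at 33.5 and 36.7 CPM), while Sparc is highest in E1KD and Vcan in L1P.

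Fibronectin was far higher in hnRNP E1-silenced and in TGFβ-treated cells than in NMuMG. Fn1 (ENSMUSG00000026193.15, GRCm38 chr1:71585520-71653201, minus strand) measured 10.8 and 10.5 CPM in NMuMG, while the E1KD libraries had 206 and 119 CPM and those of TGFβ-treated cells 618 and 745 CPM. The 3 conditions did not overlap, and the E1KD pair had the largest ratio between its libraries. Levels were 15.2-fold higher in E1KD than in NMuMG (log2 fold change 3.76, limma standard error 0.17) and 63.9-fold higher after TGFβ (5.86, standard error 0.17), the same NMuMG libraries serving both. Without E1KD replicate 1 the log2 fold change in E1KD was 3.36, and with that library rescaled to the sum of replicate 2 it was 3.58.

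In the lines recovered from the mouse, Fn1 was lower than in E1KD in the tumor line and overlapped E1KD in the lung line. M1P had 43.8 and 44.0 CPM, 3.70-fold below E1KD (log2 fold change -1.81, or -1.41 without E1KD replicate 1). L1P had 134.5 and 134.6 CPM, 3.06-fold above M1P (1.59, standard error 0.17) and between the 2 E1KD libraries. Both lines remained above every NMuMG library, M1P by 4.12-fold and L1P by 12.6-fold.

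In the second set Fn1 was higher in E1KD SCR than with the empty vector. It stood at 5.90 and 5.03 CPM with the empty vector and at 19.6 and 21.8 CPM in E1KD SCR, 3.79-fold higher (log2 fold change 1.75, standard error 0.17). E1KD SCR cells carry shRNA constructs and their control an empty overexpression vector, so silencing and construct cannot be told apart in this comparison. No library is shared with the comparison of E1KD and NMuMG, although E1KD SCR was made from E1KD cells. Platr18 overlapped between E1KD SCR and the empty vector and was higher in E1KD than in NMuMG. Its part in the Fn1 values was not tested. With Platr18 silenced in E1KD cells, Fn1 was at 6.13 and 6.27 CPM, 3.34-fold below E1KD SCR (-1.59). That is 1.13-fold above the empty vector, a difference of 0.16 on the log2 scale with a standard error of 0.17. Platr18 KD cells carry 1 shRNA against Platr18, so loss of Platr18 and other effects of that shRNA cannot be told apart. Clone 12 had 13.5 and 12.4 CPM and clone 16 had 12.4 and 12.2 CPM, together 2.31-fold above the empty vector (1.08, standard error 0.15). Platr18 itself was several times more abundant in clone 12 than in clone 16, and their Fn1 levels differed by 0.07 on the log2 scale (standard error 0.17). Each is 1 clone, so a clone's own properties and its Platr18 level cannot be told apart.

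The limits used for all genes were a limma p under 0.001 before adjustment together with a log2 fold change of 1 or more in size. Fn1 was past them in all 7 comparisons, Thbs1 and Spp1 in 2 each, and Tnc and Sparc in 1 each. These are the contrasts that were known when the list was drawn up, so nothing is read from the counts. The share of all tested genes past them was 9.44% between E1KD and NMuMG, 13.5% after TGFβ, 3.59% between M1P and E1KD, 1.21% between L1P and M1P, 1.46% with Platr18 overexpression, 1.48% with Platr18 silencing and 5.98% between E1KD SCR and empty vector. In the same order, 6.44%, 5.85%, 1.16%, 0.742%, 0.427%, 0.485% and 2.91% of genes were higher and 2.99%, 7.66%, 2.43%, 0.468%, 1.03%, 0.994% and 3.07% lower. With pairs of libraries, groups that do not overlap are common: 64.8%, 80%, 61%, 70.5%, 35.1%, 71.2% and 76.6% of genes had none. Of the calls between E1KD and NMuMG 68.3% were higher, and 53.0% with median-of-ratios scaling. The corresponding shares were 43.3% and 53.5% after TGFβ, and 32.2% and 50.9% between M1P and E1KD. Under that scaling the median log2 fold change of all tested genes went from 0.17 to 0.03 in E1KD and from -0.17 to -0.01 between M1P and E1KD. The Fn1 log2 fold changes in those 2 comparisons were 3.55 and -1.59 under it. Fn1 with Platr18 overexpression was just past the fold limit, at 1.08, and fell short of it, at 0.98, when empty vector replicate 2 was left out.

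**Figure D2:**
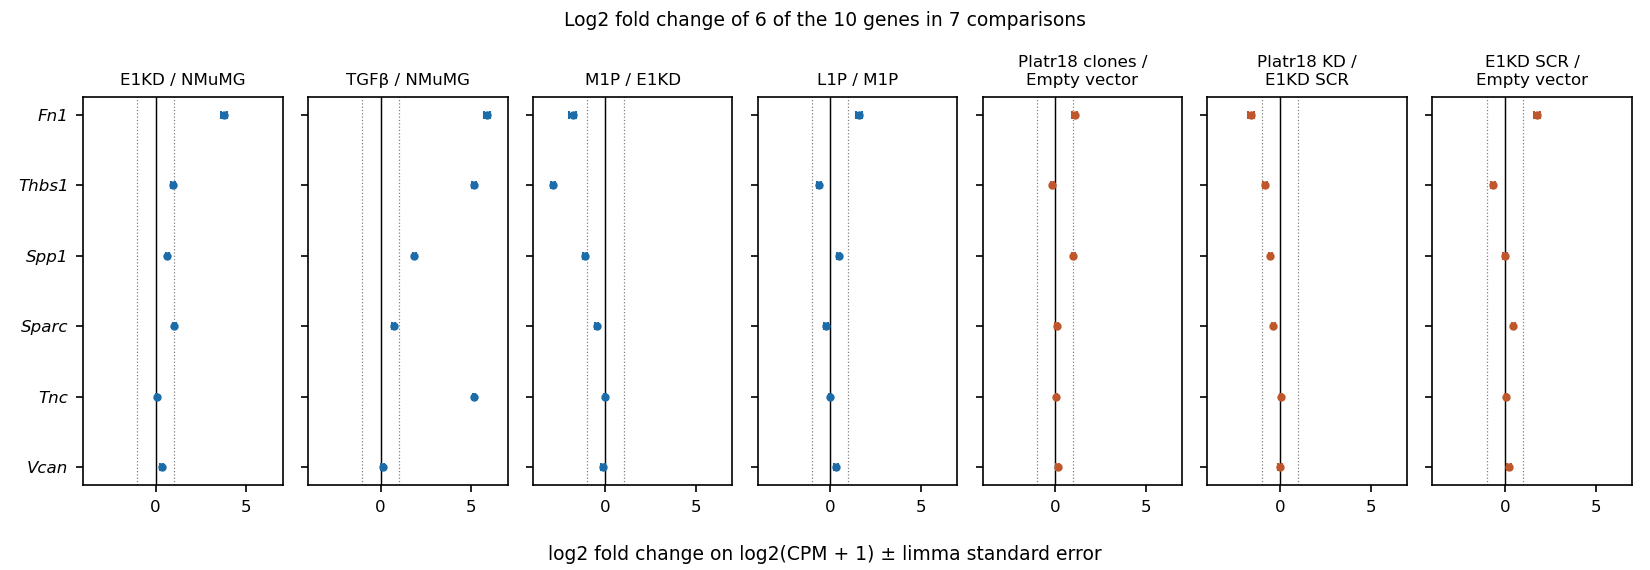
Log2 fold change of 6 of the 10 genes on log2(CPM + 1) in 7 comparisons, with bars of 1 limma standard error (often narrower than the dot) and dotted lines at the fold limit of 1 in either direction; blue is the first set and orange the second. Fn1 lies beyond the dotted lines in all 7 panels, whereas Vcan lies within them in all.

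Thrombospondin 1, a large trimeric glycoprotein that binds CD36 and CD47 and can activate latent TGFβ, had a wider range than Fn1 in both sets. Thbs1 (ENSMUSG00000040152.8, chr2:118111876-118127134, plus strand) was at 66.1 and 64.0 CPM in NMuMG and at 2261 and 2479 CPM after TGFβ, 36.4-fold higher (log2 fold change 5.16, standard error 0.11). The level in E1KD was 152 and 110 CPM, or 2.01-fold above NMuMG (0.98, or 0.75 without E1KD replicate 1). Both lines from the mouse were lower than any other condition of the set: M1P had 16.4 ± 0.823 CPM (SD, n = 2) and L1P 10.7 and 9.80 CPM. M1P was 7.98-fold below E1KD (-2.90, standard error 0.11) and L1P 6.36-fold below NMuMG. The highest mean was 231-fold the lowest in the first set and 5.66-fold in the second, against 63.9-fold and 3.79-fold for Fn1.

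In the second set Thbs1 was lower in E1KD SCR than with the empty vector, and the 2 clones lay on opposite sides of the empty vector. It was at 111 and 105 CPM with the empty vector and at 66.2 and 71.3 CPM in E1KD SCR, 1.57-fold lower (log2 fold change -0.65). In E1KD of the first set it was higher than its control, with no overlap in either set. Clone 12 had 217 and 222 CPM and clone 16 had 41.8 and 43.2 CPM. Clone 12 was 2.03-fold above the empty vector (1.01, standard error 0.11) and clone 16 was 2.55-fold below it (-1.33), so that their mean difference from the empty vector, -0.16, describes neither clone. Platr18 KD had 38.3 and 39.3 CPM, 1.77-fold below E1KD SCR (-0.81).

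Osteopontin, a phosphorylated ligand of αv integrins and CD44, was the most abundant of the 10 genes per length in all 10 conditions. Per kilobase of exon the mean level of Spp1 (ENSMUSG00000029304.14, chr5:104435118-104441051, plus strand) was 239 CPM in NMuMG, against 56.1 for Sparc, 10.7 for Thbs1 and 0.913 for Fn1. After TGFβ it was 872 CPM per kilobase, followed by 390 for Thbs1, 92.8 for Sparc, 58.3 for Fn1 and 4.51 for Tnc. By library, Spp1 was at 394 and 393 CPM in NMuMG and 1423 and 1453 CPM after TGFβ, 3.65-fold higher (log2 fold change 1.87, standard error 0.09). The 2 TGFβ libraries lay above every other library of the set.

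E1KD had 693 and 553 CPM of Spp1 (log2 fold change 0.65 over NMuMG, or 0.49 without E1KD replicate 1). M1P had 279.1 and 286.1 CPM, 2.21-fold below E1KD (-1.13, or -0.97 without that library), and L1P had 396 and 384 CPM, which overlapped NMuMG. In the second set the empty vector had 569 and 647 CPM and E1KD SCR 627 and 591 CPM, which overlapped. Clone 12 was highest of its set with 1707 and 1742 CPM, 2.84-fold above the empty vector (1.51, standard error 0.09). Clone 16 had 863 and 827 CPM, 1.39-fold above it (0.48). For Spp1 and Fn1 both clones lay above the vector, which was not so for Thbs1. Platr18 KD had 411 and 421 CPM, 1.46-fold below E1KD SCR (-0.55).

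**Figure D3:**
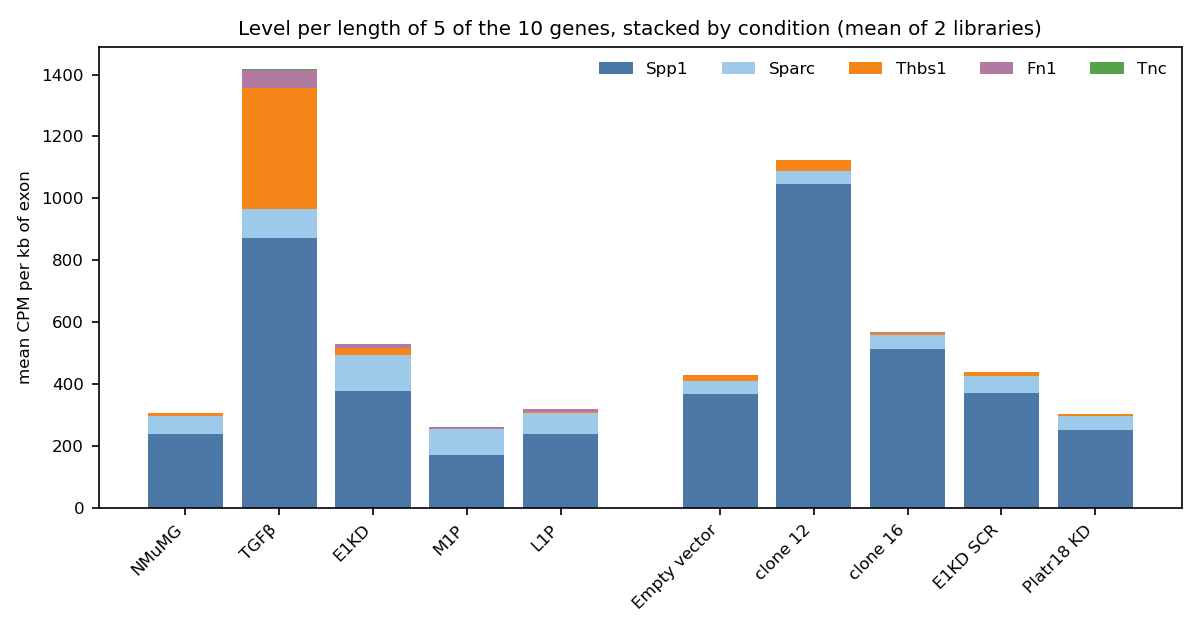
Mean CPM per kilobase of exon of 5 of the 10 genes, stacked by condition, each bar the mean of 2 libraries. Spp1 is the largest share of every bar, and Thbs1 is a visible share mainly after TGFβ, at 390 CPM per kilobase against 10.7 in NMuMG.

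Osteonectin, a collagen-binding calcium protein, was the steadiest of the abundant genes. Sparc (ENSMUSG00000018593.13, chr11:55394500-55423184, minus strand) was at 213 and 212 CPM in NMuMG, while E1KD had 494 and 380 CPM and TGFβ-treated cells had 342 and 361 CPM. Unlike Fn1, Thbs1 and Spp1, it was higher in E1KD than after TGFβ in these CPM values, with no overlap. Across the alternative fits with all libraries of both groups, its log2 fold change over NMuMG was 0.82 to 1.03 in E1KD. After TGFβ it was 0.72 to 0.86, so the order of the 2 depends on the processing. Its log2 fold change in E1KD, 1.02 (standard error 0.09), was just past the fold limit, and fell short of it at 0.83 without E1KD replicate 1 and 0.82 with median-of-ratios scaling. M1P had 305 and 314 CPM and L1P 263 and 262 CPM, lower than E1KD and higher than NMuMG in every library. In the second set E1KD SCR was highest at 220 and 215 CPM against 160 and 153 CPM with the empty vector (0.47), and Platr18 KD was at 166 and 168 CPM (-0.38 against E1KD SCR). The clones stayed near the vector, clone 12 at 156 and 155 CPM and clone 16 at 169 and 179 CPM. Over all 5 conditions of the second set the highest mean of Sparc was 1.39-fold the lowest.

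Tenascin C, a hexameric glycoprotein that loosens the adhesion of cells to fibronectin, was a gene of the TGFβ condition. Tnc (ENSMUSG00000028364.15, chr4:63959785-64047016, minus strand) had no read in either NMuMG library and 33.5 and 36.7 CPM after TGFβ, from 2008 and 2200 reads. Set against the 3 reads per library that a count of 0 allows, it was at least 620-fold higher after TGFβ. In the other 18 libraries it had at most 12 reads, and in 5 of them none. E1KD, with 0.0394 and 0.0370 CPM, had 2 reads per library, a level at which no difference from NMuMG was detectable. E1KD, M1P and L1P, which held 4.12-fold to 15.2-fold the Fn1 of NMuMG, had 0 to 2 Tnc reads per library. The log2 fold change of Tnc after TGFβ was 5.17 (standard error 0.05) and depends on the pseudocount of 1, being 8.46 with 0.1. The fibroblast marker Col1a1 was also highest in the TGFβ libraries, at 30.1 and 38.4 CPM, with Dcn at 0.0167 CPM or less there, and its part in the Tnc and Postn values was not tested.

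Periostin, an integrin ligand of fibrous connective tissue, followed Tnc at a far lower level. Postn (ENSMUSG00000027750.16, chr3:54361109-54391038, plus strand) had 12 and 18 reads after TGFβ, or 0.200 and 0.300 CPM, and none in NMuMG, so that it was at least 4.42-fold higher. Of the other 18 libraries 16 had no read, and none had more than 2. Versican, a large chondroitin sulfate proteoglycan (Vcan, ENSMUSG00000021614.16, chr13:89655312-89742510, minus strand), was between 0.534 and 1.77 CPM in all 20 libraries. Its highest pair was L1P at 1.61 and 1.77 CPM, against 1.03 and 0.754 CPM in NMuMG. An antisense gene that overlaps Vcan reached 4.41 CPM, and since the counting is not stated to use strand, reads of the 2 cannot be told apart. Genes overlapping Fn1, Tnc, Thbs1 and Spp1 reached 0.230, 0.868, 3.23 and 7.54 CPM, below those genes wherever they were abundant.

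The other 3 genes were at the edge of detection in every condition. Thbs2, the second thrombospondin (ENSMUSG00000023885.9, chr17:14665500-14694236, minus strand), reached 6 reads at most and had 1 and 0 reads after TGFβ, where Thbs1 stood at 2261 and 2479 CPM. Tgfbi, an adhesion protein named for its induction by TGFβ (ENSMUSG00000035493.10, chr13:56609523-56639563, plus strand), had no read in either TGFβ library and 1 read at most elsewhere. Fbln1, a binding partner of fibronectin in basement membranes (ENSMUSG00000006369.14, chr15:85205949-85286536, plus strand), had 3 reads at most and 14 libraries with none. Differences between conditions were not detectable for these genes at this depth.

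Summed over the 10 genes, the level was 683 ± 3.70 CPM (SD, n = 2) in NMuMG, 4877 ± 281 CPM after TGFβ and 1355 ± 271 CPM in E1KD. The lines M1P and L1P had sums of 654 ± 11.8 and 800 ± 9.28 CPM. In both M1P libraries the sum lay below that of every NMuMG library, although Fn1 and Sparc lay above. In the second set the sum was 879 ± 46.4 CPM with the empty vector, 2113 ± 26.0 CPM in clone 12, 1075 ± 18.0 CPM in clone 16, 916 ± 23.9 CPM in E1KD SCR and 629 ± 8.65 CPM in Platr18 KD. Spp1 made up 29.5% of the sum after TGFβ and 81.6% in clone 12.

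The genes whose pattern was most like that of Fn1, by Pearson's r of log2(CPM + 1) over the 10 condition means centred within each set, were Elk3 (r = 0.98), Etv6 (r = 0.98) and Vdr (r = 0.96). Those nearest to Tnc were Mmp9, Sox10 and Rab15, each with an r that rounds to 1. For Tnc this rests on the TGFβ condition alone, since the gene hardly varied elsewhere. Among the 10 genes themselves r was 0.84 between Thbs1 and Spp1 and 0.56 between Thbs1 and Fn1. All these are correlations over 10 means of genes read in the same libraries and are given as a description.

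Other matricellular genes and the receptors that bind these proteins were listed by family, 37 and 21 genes, of which 11 and 15 were tested. Both lists were drawn up with earlier results of these data known. Their counts, medians and limma adjusted p-values, here and below, are therefore a description and not independent evidence. Between E1KD and NMuMG, 4 of the 11 matricellular genes rose and none fell, and 1 of the 15 receptors rose (background 9.44% called). The median log2 fold change was 0.73 for the matricellular list and 0.63 for the receptors, beside 0.17 for all genes. Smoc1, a secreted calcium-binding protein of basement membranes, rose from 0.159 and 0.113 CPM to 23.2 and 19.6 CPM (log2 fold change 4.30, adjusted p = 1.8e-14 from limma, Benjamini-Hochberg). Wisp1, a member of the CCN family, rose from 7.50 and 8.50 CPM to 176 and 150 CPM (4.18, limma adjusted p = 7.1e-15). Fbln2, the fibulin that binds fibronectin, rose from 40.8 and 40.6 CPM to 545 and 423 CPM (3.53, limma adjusted p = 5.8e-12). Tnxb, tenascin X, rose by 2.97 on the same scale (limma adjusted p = 4e-10). The receptor was Itga5, the fibronectin-specific integrin chain, which rose from 2.32 and 2.68 CPM to 35.1 and 25.9 CPM (3.16, limma adjusted p = 8.1e-12). All 5 calls held without either E1KD library.

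After TGFβ calls were made in both lists. Of the 15 receptors, 7 rose and none fell, and of the 11 matricellular genes 6 rose and 1 fell (background 13.5% called). The medians were 0.68 and 1.19, beside -0.08 for all genes. Itga5 reached 110 and 121 CPM (log2 fold change 5.05, limma adjusted p = 5.4e-14). Its partner Itgb1 rose from 170 and 173 CPM to 550 and 593 CPM (1.73, limma adjusted p = 3.8e-08). Of the chains that bind osteopontin and other ligands, Itgb3 rose by 3.27 on the log2 scale (limma adjusted p = 5.1e-13) and Itgb5 by 2.10 (limma adjusted p = 3.4e-08). The remaining 3 were Itgav, Cd44 and Lrp1, and Lrp1 lost its call when any of 3 of the 4 libraries compared was left out.

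Among the matricellular genes after TGFβ, Fbln2 rose to 884 and 965 CPM (log2 fold change 4.47, limma adjusted p = 3.8e-13) and Wisp1 to 145 and 150 CPM (4.05, limma adjusted p = 1.2e-14). The CCN genes Cyr61 and Ctgf, known targets of YAP and of TGFβ signaling, rose by 2.30 (limma adjusted p = 5.7e-10) and 2.03 (limma adjusted p = 4.5e-11). Wisp2 and Efemp2 rose as well. Tnxb was the gene that fell, from 4.69 and 4.21 CPM to 0.985 and 1.05 CPM (-1.43, limma adjusted p = 9.2e-07). In E1KD the same gene rose, to 51.2 and 33.9 CPM, and the difference between the 2 comparisons, which share the NMuMG libraries, was not tested.

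**Figure D4:**
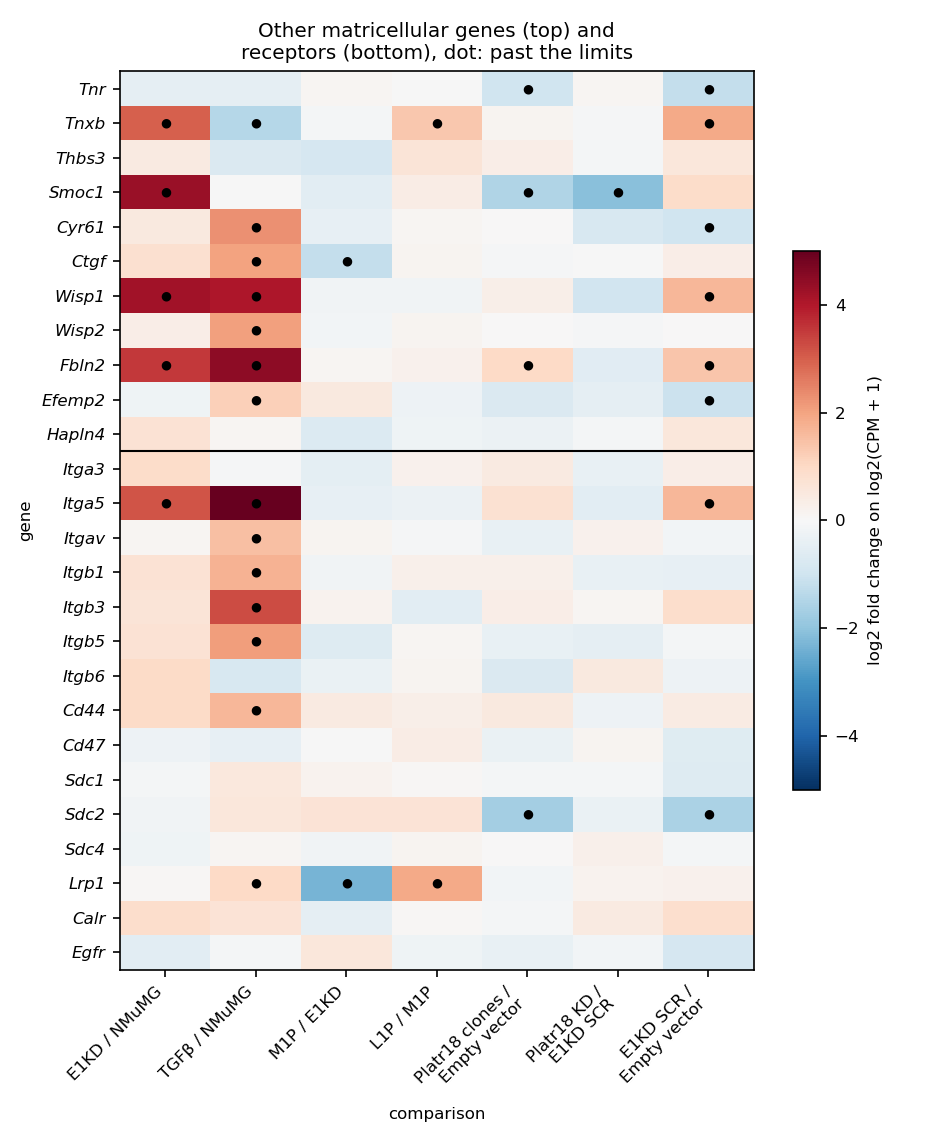
Log2 fold change of the 11 other matricellular genes and 15 receptors that were tested, in 7 comparisons; red is higher in the first-named condition, blue lower, and a dot marks a gene past the limits. Itga5, Fbln2, Wisp1 and Tnxb carry dots for E1KD, TGFβ and E1KD SCR, all higher except Tnxb after TGFβ (-1.43), and most receptors with a dot have it after TGFβ.

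In the lines from the mouse 1 gene of each list was called in each comparison. Between M1P and E1KD, Ctgf fell from 660 and 554 CPM to 260 and 262 CPM (log2 fold change -1.21, limma adjusted p = 5.3e-08), and the endocytic receptor Lrp1, which clears thrombospondin, fell from 75.6 and 40.1 CPM to 10.4 and 10.2 CPM (-2.32, limma adjusted p = 5.6e-07), against a background of 3.59% called. Neither was called when only those groups entered the fit, and Ctgf was not called with median-of-ratios scaling. L1P had more Lrp1 than M1P, at 41.5 and 41.3 CPM (1.91, limma adjusted p = 1e-05), which lay between the 2 E1KD libraries. Tnxb was at 98.9 and 99.7 CPM in L1P against 38.6 and 38.5 CPM in M1P (1.34, limma adjusted p = 1.5e-05). The background between L1P and M1P was 1.21%. The list medians were -0.18 and -0.16 between M1P and E1KD (all genes -0.17) and 0.13 and 0.13 between L1P and M1P (all genes 0.02). Among the leukocyte markers, Lyz2 was higher in M1P and L1P, at 2.87 to 4.74 CPM against 0.276 and 0.166 CPM in E1KD. Cd68 in M1P, at 2.79 and 2.57 CPM, lay above the E1KD libraries, at 2.40 and 1.66 CPM. In L1P it was at 1.81 and 2.06 CPM, between the E1KD libraries. Ptprc, Cd3e and Adgre1 were at 0.0709 CPM or less in M1P and L1P. The part of these markers in the results was not tested.

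E1KD SCR differed from the empty vector in 6 of the 11 matricellular genes, 3 higher and 3 lower, and in 2 of the 15 receptors, 1 in each direction (background 5.98%). Itga5 was higher at 10.6 and 10.5 CPM against 2.70 and 2.61 CPM (log2 fold change 1.66, limma adjusted p = 1.8e-08). Wisp1, Fbln2 and Tnxb also rose, by 1.66, 1.38 and 1.91 (limma adjusted p = 2e-10, 3.5e-07 and 8.8e-08). Tnr, Efemp2 and Cyr61 fell, by 1.19, 1.07 and 1.01 on the log2 scale, and Cyr61 was not called when values were rescaled to equal sums (-0.99) or without E1KD SCR replicate 1 or empty vector replicate 1. The heparan sulfate proteoglycan Sdc2 fell from 2.53 and 3.03 CPM to 0.257 and 0.254 CPM (-1.59, limma adjusted p = 1.6e-09).

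Platr18 overexpression gave 4 calls among the 26 genes (background 1.46%). Sdc2 fell to 0.253 and 0.383 CPM in clone 12 and to no read in clone 16 (log2 fold change -1.72, limma adjusted p = 7.5e-10), and Smoc1 fell from 2.63 and 2.65 CPM to 0.0149 and 0.0460 CPM in clone 12 and 0.596 and 0.545 CPM in clone 16 (-1.52, limma adjusted p = 2.1e-09). Tnr (-1.01) and Fbln2 (1.01) lay at the fold limit and lost their calls when single libraries were left out, and Tnr also under both other scalings. Fbln2 was at 46.9 and 54.1 CPM in clone 12 and 149 and 177 CPM in clone 16, beside 42.5 and 46.3 CPM with the empty vector. With Platr18 silenced in E1KD cells, Smoc1 alone of the 26 was called (background 1.48%). It fell from 5.62 and 6.08 CPM to 0.692 and 0.511 CPM (-2.10, limma adjusted p = 5e-10). Smoc1 was thus lower both with more Platr18 in NMuMG and with less Platr18 in E1KD cells. Fn1 was higher in the former case and lower in the latter. In the first set Fn1 and Platr18 had different orders. Fn1 was highest after TGFβ, where Platr18 was at 2.40 and 2.70 CPM, below E1KD. M1P had more Platr18 and less Fn1 than E1KD, and L1P had more of both than M1P. The part of Platr18 in these values was not tested.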

How the data were processed

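The authors extracted RNA with Trizol, sequenced it on an Illumina HiSeq2500, aligned reads with Bowtie2 (2.2.5, GRCm38.p6 per the labels) and quantified them in Partek (E/M) against M18 gene models, with strand not stated. They deposited CPM values of 54986 genes in 20 libraries, with 0.0001 added, which was subtracted here. Whole reads were found for 91.3% to 97.83% of values below 30 reads (within 0.05 read), so exact counts were not recovered and the numbers of reads given are approximate. Column sums lay between 0.5475 and 0.7973 of 1e6. In the first set E1KD replicate 1 had the highest sum, 0.729, beside 0.567 for E1KD replicate 2. The next highest of that set was 0.581, in TGFβ replicate 2.

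Values were taken to log2(CPM + 1), which understates folds of low genes, and fitted with limma 3.58.1 (lmFit, eBayes with trend, R 4.3.3) with 10 condition means. The fit was tested on simulated data. Calls required p under 0.001 before adjustment and a log2 fold change of 1 or more in size. Folds quoted as such are ratios of mean CPM. Exon lengths came from GENCODE M21 (GRCm38), promoters from RefSeq. The 10 genes and both context lists were chosen with earlier results of these data known. Named genes were the 10, up to 4 called genes with the largest change per context list and comparison whose groups did not overlap, the 3 genes most like Fn1 and Tnc, Pcbp1, Platr18 and the markers. Ctgf, Efemp2, Tnxb, Itgav, Cd44 and Lrp1 after TGFβ, Efemp2 and Cyr61 in E1KD SCR, and Itgb6, Itgav and Cd47 among the opposite directions fall outside that rule and were named after their values were seen. Tables used Python 3.11.15, numpy 2.4.6 and pandas 2.3.3, figures matplotlib 3.10.9. Alternatives were other pseudocounts, filters, scalings, thresholds, samples in the fit, a replicate block and leaving out each library.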

Additional observations from a re-analysis of the deposited data

Results flagged for a closer look

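The 6 tested genes of the 10, the 26 tested context genes and the 12 tested cell type markers were searched for genes that went opposite ways under the same contrast in 2 settings, with every library of the one condition above, and of the other below, those of its control. There were 14 such instances, and none of the differences was tested. The share of all tested genes with such opposite directions was not counted, so nothing is read from the number of instances. Groups that do not overlap were common, at 64.8% of all tested genes for E1KD against NMuMG and 76.6% for E1KD SCR against empty vector. For hnRNP E1 silencing in the first set (E1KD against NMuMG) and the second (E1KD SCR against empty vector), Thbs1 had log2 fold changes of 0.98 and -0.65, a difference of 1.63. Cyr61 had 0.47 and -1.01 (difference 1.49), Itgb6 had 0.96 and -0.26 (difference 1.22) and Itgb1 had 0.72 and -0.42 (difference 1.13). Among the markers, Krt18 had 0.38 and -0.29 (difference 0.66) and Lyz2 had -0.18 and 0.15 (difference -0.33). Within the second set, E1KD SCR and its control also carry different constructs. The 2 sets also differ in kind of library, in the constructs the cells carry and in Platr18, which was higher in E1KD than in NMuMG and overlapped between E1KD SCR and empty vector. These cannot be told apart here. Without E1KD replicate 1 the value of Thbs1 in the first set was 0.75.

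For clone 12 and clone 16 against the empty vector, Thbs1 had 1.01 and -1.33, a difference of 2.34. Wisp1 had -0.37 and 0.96 (difference -1.33), Itgav had -0.99 and 0.27 (difference -1.26), Cd47 had -0.76 and 0.13 (difference -0.89), Itgb3 had 0.76 and -0.06 (difference 0.82), Tnxb had -0.25 and 0.54 (difference -0.79) and Itgb1 had -0.08 and 0.56 (difference -0.64). The fibroblast marker Pdgfra, at 0.0297 to 1.52 CPM in these libraries, had -0.28 and 0.96 (difference -1.235). Each overexpressing group is 1 clone, so a clone's own properties and its Platr18 level cannot be told apart.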

How the results depend on the processing

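Of 514 values of the 6 tested genes of the 10 under the alternatives, 443 moved by less than the spread between replicates, 71 by more, and none of those past the limits changed sign. Of 192 counts of called genes, 168 stayed within 1.5 times the main count. With pseudocount 0.1 the genes called went from 614 to 1130 (M1P against E1KD), 207 to 465 (L1P against M1P), 249 to 616 (Platr18 overexpression), 253 to 633 (Platr18 silencing) and 1023 to 1708 (E1KD SCR against empty vector), and the context genes from 5 to 8 in E1KD and 1 to 2 with Platr18 silencing. With a mean of at least 5 CPM, where fewer genes were tested, 948 genes were called in E1KD (1614 in the main fit), and 329, 115, 127, 139 and 557 in the comparisons above, with 2 context genes for Platr18 overexpression (main 4). With the compared groups alone in the fit, 758 genes were called in E1KD and 274 in M1P against E1KD, with 0 context genes in the latter (main 2; 1 with median-of-ratios factors). Clone 12 alone gave 624. Leaving out single libraries gave 1412 to 3074 genes and 5 to 12 context genes in E1KD, 568 to 2021 and 2 to 4 in M1P against E1KD, and 2 to 4 context genes for Platr18 overexpression. The highest values for E1KD and M1P came without E1KD replicate 2 and the value of 2 without empty vector replicate 1. The cause was not tested for the other moves. Same-numbered libraries did not deviate together (correlations of -0.125 to 0.127), and with the replicate block 1606 genes were called in E1KD, 607 in M1P against E1KD and 249 with Platr18 overexpression, also with the numbers of clone 16 crossed, which was chosen after seeing the data, as was the rescaling of E1KD replicate 1. Depth limits Postn, Thbs2, Tgfbi and Fbln1, and Tnc outside TGFβ.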
